A study of Mus musculus with 7 samples.

Results

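The angiomotins and the effectors of the Hippo pathway were examined as a list of 10 genes, out of 18194 genes measured on the arrays. The list holds the angiomotin genes Amot, Amotl1 and Amotl2, the coactivator genes Yap1 and Wwtr1 (which encodes TAZ), the transcription factor genes Tead1, Tead2, Tead3 and Tead4, and the kinase gene Lats2. It was picked because Amot was high in the endoderm and mesoderm arrays, so the values of Amot in those arrays chose the list and are given as a description. The study compared mouse ES cells with germ layer cells derived from them and with adult tissues. RNA was hybridized to Affymetrix mouse expression arrays, with 1 array for each of 7 sources. End, Pme and Ect are endoderm, paraxial mesoderm and ectoderm differentiated in culture from the ES cell line SK7. Brain, Liver and Sk_muscle (skeletal muscle) were taken from male ICR mice more than 9 weeks old, and SK7_ESC is the undifferentiated SK7 line. SK7 is a male line that carries a GFP reporter driven by the Pdx1 promoter, so End, Pme, Ect and SK7_ESC all carry that transgene and all stand for 1 cell line. The labels give ICR as the strain of every sample, and the sources used here do not say how many animals or cultures went into an array.

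In the Hippo pathway, the kinases MST1 and MST2 activate LATS1 and LATS2, which phosphorylate YAP and TAZ and so hold them in the cytoplasm. Unphosphorylated YAP and TAZ enter the nucleus and activate genes by binding TEAD proteins, since they do not bind DNA themselves. Angiomotins are scaffold proteins of tight junctions and actin filaments that bind YAP and TAZ through short proline-rich motifs, and they also bind LATS kinases. In the mouse preimplantation embryo this pathway sets inner cells apart from the outer trophectoderm, and in the mouse Amot is needed for movement of the visceral endoderm.

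The values are linear signals that the authors scaled to an average of 100 in each array. A signal under 50 was taken as background and raised to 50 before a ratio was formed, so that a ratio with 1 such signal is a lower bound. A gene was called higher or lower at a ratio of at least 2 with the brighter signal above background. There were no replicates, so no test was possible, differences are described by size, and precision is limited by having so few arrays. Between 7810 and 9075 genes were above background in an array. The adult arrays carried the markers of their tissues, since Brain had 5 of 5 neuron genes above background, Liver 4 of 4 hepatocyte genes and Sk_muscle 5 of 5 genes of skeletal muscle. In End 5 of 5 definitive endoderm genes were above background, and in Ect 4 of 5 ectoderm and neural genes were. In Pme 1 of 5 paraxial mesoderm genes was above background, Pdgfra at 1062, while Tbx6, Meox1, Tcf15 and Msgn1 lay between 2.7 and 29.1, so the array is called Pme by its label only. In whole cultures and tissues, fewer cells of a type and less RNA per cell cannot be told apart.

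Amot, which encodes the founding angiomotin, had its highest signals in End and Pme. Its signal was 4848 in End, 2907 in Pme, 336.9 in Ect, 161.3 in Brain, 96.8 in Liver, 928.9 in Sk_muscle and 71.1 in SK7_ESC. All 7 signals were above background, and the levels in End and Pme lay within 2-fold of each other and above the rest by at least 3.13-fold. The signal was 68.2-fold higher in End than in SK7_ESC, the highest ratio of the 18194 genes under the background of 50, and 40.9-fold higher in Pme, the third-highest. In Ect the ratio to SK7_ESC was 4.74 and in Sk_muscle it was 13.1. Set against Ect, the ratio was 14.4 for End and 8.63 for Pme. Amot was the 1 gene of the list that was at least 2-fold higher in both End and Pme than in both Ect and SK7_ESC, a pattern formed after the values were seen that held for 0.517% of all genes.

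Amot has 3 probe sets, and all 3 were called higher in End and in Pme against SK7_ESC and against Ect. The second probe set had 2305 in End, 642.3 in Pme, 58.5 in Ect and 24.3 in SK7_ESC, and the third had 597, 209.3, 42 and 23.8 in the same arrays. With them the ratio of End to SK7_ESC was at least 46.1 and at least 11.9, so the direction was shared and the size was not. In Ect and in Brain only the brightest probe set was called higher than in SK7_ESC, and with the geometric mean of the 3 probe sets the log2 ratio in Ect was 0.91, under the call. In Sk_muscle 2 of the 3 probe sets were called higher than in SK7_ESC, the second at least 3.47-fold, and the third was under background at 46.5. The extraembryonic endoderm also expresses Amot in the embryo, so its markers are given beside these values. Of 10 such markers, 4 were above background in End, 6 in Pme, 4 in Ect and 7 in SK7_ESC, with summed signals of 3689 in End, 3488 in Pme, 1242 in Ect and 2017 in SK7_ESC. Gata6 was 999.7 in End, 408.6 in Pme, 45.5 in Ect and 60.6 in SK7_ESC, and Gata4 was 247.7, 98.6, 20.5 and 26.5 in the same arrays. Both genes are also expressed in definitive endoderm. Lamb1, a laminin gene and the brightest of these markers in End, was 1601 in End, 822.5 in Pme, 185.9 in Ect and 600.7 in SK7_ESC, and 2.67-fold higher in End than in SK7_ESC. Sparc was 725.6 in End, 1747 in Pme and 673.2 in SK7_ESC. The other 6 markers, Sox7, Lama1, Dab2, Amn, Cubn and Thbd, lay between 8.3 and 45.9 in End, under background. Of the 10 markers, 3 were called higher in End than in SK7_ESC (4.89% of all genes) and 4 lower (3.81%). The lower ones were Lama1, Dab2, Amn and Cubn, which had 197.9, 165.4, 123.1 and 111.4 in SK7_ESC. The part of such cells in the Amot signals was not tested.

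Amotl1 and Amotl2, the other angiomotin genes, were also higher in each germ layer than in ES cells, by smaller ratios. Amotl1 had 311.1 in End, 446 in Pme, 270.7 in Ect, 125.7 in Brain, 53.9 in Liver, 868.1 in Sk_muscle and 109.3 in SK7_ESC. Its highest signal was thus in muscle, 7.94-fold above SK7_ESC, and the germ layers followed at 2.85-fold in End, 4.08-fold in Pme and 2.48-fold in Ect. Its second probe set had 126.2 in End, 195.9 in Pme, 126.4 in Ect, 357.1 in Sk_muscle and 45.9 in SK7_ESC, which gave the same 4 calls, and the third was under background in all 7 arrays. With the geometric mean of the probe sets the log2 ratio was 0.71 in End and 0.87 in Ect, under the call. In Liver Amotl1 was 2.03-fold lower than in SK7_ESC, close to the 2-fold limit.

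Amotl2, itself a target gene of YAP and TAZ in human cells, had 255.4 in End, 417.7 in Pme, 406.2 in Ect, 68.1 in Brain, 168.3 in Liver, 191.6 in Sk_muscle and 115.6 in SK7_ESC. Against SK7_ESC the ratio was 2.21 in End, 3.61 in Pme and 3.51 in Ect. Unlike Amot, its level in End was below that in Ect, at a ratio of 0.629 that was not called. Amotl2 has 1 probe set, which the annotation gives to this gene alone. Its identifier ends in _a_at, which marks transcripts that share sequence.

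**Figure D1:**
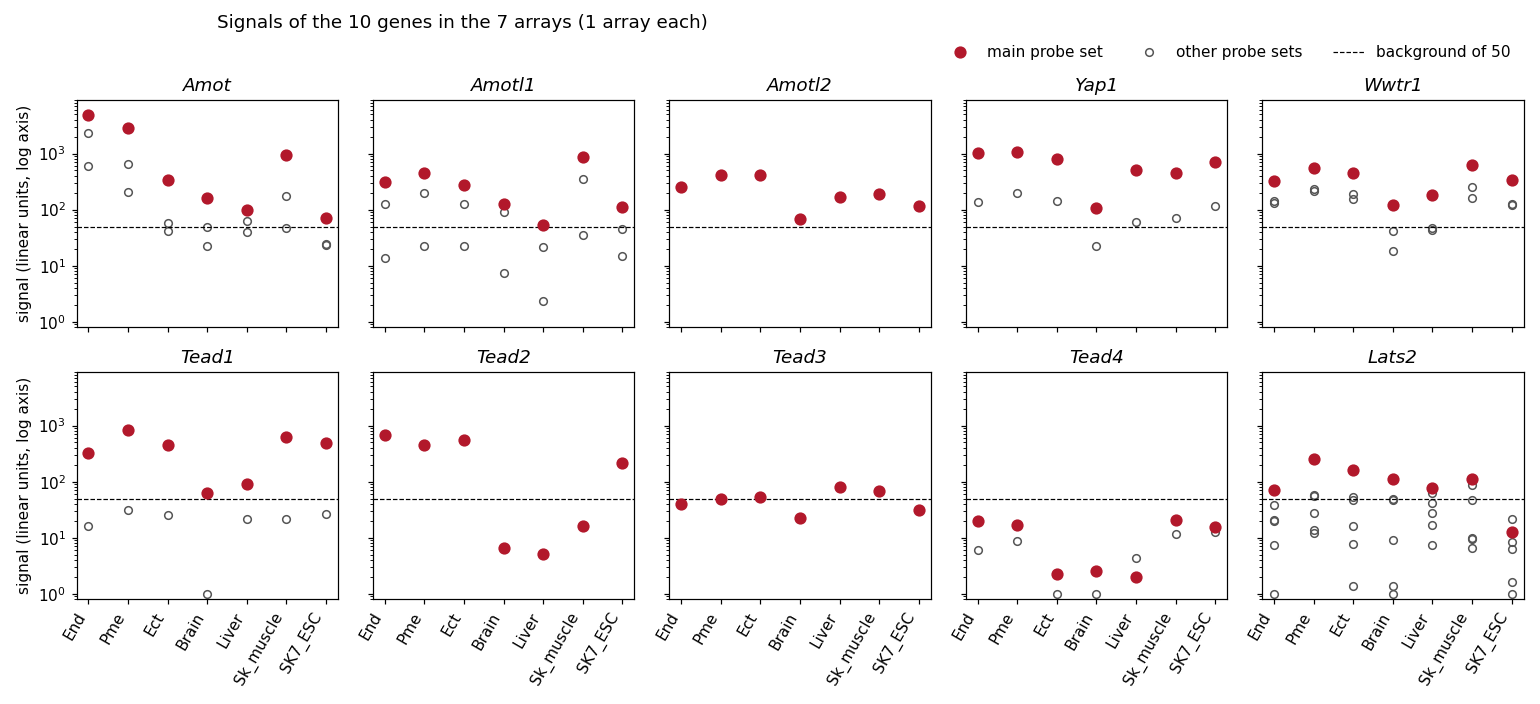
Signals of the 10 genes in the 7 arrays (log axis, signals under 1 drawn as 1), with 1 array for each point along the horizontal axis; filled points are the main probe set of a gene, open points its other probe sets, and the dashed line the background of 50. Amot stands at 4848 in End and 71.1 in SK7_ESC, Tead2 is under the line in the 3 adult tissues, and Tead4 is under it throughout.

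TEAD proteins recognise a short DNA motif with the core GGAATG. It was searched on both strands, where it reads CATTCC on the reverse, in RefSeq promoter windows of GRCm38.p6 that run from 250 bases before the start of a gene to 50 after it. Such a window was found for 8 of the 10 genes, 12 windows in all. The motif was in at least 1 window of 5 of these 8 genes, Amotl2, Yap1, Wwtr1, Tead3 and Lats2. These were 7 of the 12 windows, but both windows of Wwtr1 overlap and hold the same match, and Tead3 and Lats2 each have a window without one. Over all 32851 windows the share was 14.7%, which is counted by window and not by gene. It was absent from the windows of Amot, Amotl1 and Tead2. The windows differ in composition, with 7 CpG in that of Amot, 26 in that of Amotl2, and a median of 7 over all windows. The 150 bases before the start of Amot are shown because Amot had the highest ratio of the list, and those of Amotl2 because its match lies there, 65 bases before the start. Matches with 20 bases on each side are shown for Yap1, Wwtr1 and the target gene Ccn1, which encodes the matricellular protein CYR61. Capitals mark the motif, of which the Amot stretch has none, and a match is a run of letters and not a measured binding site.
Amot, chrX:145487640-145487789, minus strand: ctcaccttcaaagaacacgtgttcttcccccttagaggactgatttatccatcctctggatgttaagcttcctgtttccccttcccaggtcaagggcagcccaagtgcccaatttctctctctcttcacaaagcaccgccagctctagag
Amotl2, chr9:102717654-102717803, plus strand: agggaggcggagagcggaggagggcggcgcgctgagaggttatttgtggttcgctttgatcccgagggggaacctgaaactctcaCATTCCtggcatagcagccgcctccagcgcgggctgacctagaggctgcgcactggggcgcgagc
Yap1, chr9:8004712-8004757, minus strand: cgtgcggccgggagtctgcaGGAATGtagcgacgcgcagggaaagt
Wwtr1, chr3:57576021-57576066, minus strand: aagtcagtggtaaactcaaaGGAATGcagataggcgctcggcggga
Ccn1, chr3:145650063-145650108, minus strand: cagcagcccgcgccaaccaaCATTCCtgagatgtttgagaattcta

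The coactivator genes Yap1 and Wwtr1 were above background in all 7 arrays and were called neither higher nor lower in any germ layer against ES cells. Yap1 had 1017 in End, 1082 in Pme, 806.1 in Ect, 105.1 in Brain, 499.8 in Liver, 445.1 in Sk_muscle and 697.6 in SK7_ESC. Brain stood apart, 6.64-fold lower than SK7_ESC and 4.24-fold lower than the next array, and the other 6 arrays were each within 2-fold of their neighbour in order. Both probe sets of Yap1 were called lower in Brain, where the second had 22.1 against 117.2 in SK7_ESC. Wwtr1 had 321.1 in End, 544.7 in Pme, 445.2 in Ect, 119.8 in Brain, 181.7 in Liver, 620.4 in Sk_muscle and 335.5 in SK7_ESC. It was 2.80-fold lower in Brain than in SK7_ESC with the main probe set, and all 3 of its probe sets were called lower there. In Liver it was 1.85-fold lower, not called, while its other 2 probe sets were called lower. In Sk_muscle its ratio to SK7_ESC was 1.85, also not called, and 1 of its 3 probe sets was called higher. In the germ layers the ratios of Yap1 to SK7_ESC ran from 1.16 to 1.55 and those of Wwtr1 from 0.957 to 1.62.

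The TEAD genes, which encode the DNA-binding partners of YAP and TAZ, fell into distinct patterns. Tead2, the TEAD gene known from the early mouse embryo and neural precursors, had 686 in End, 456.4 in Pme, 545.4 in Ect, 6.5 in Brain, 5.1 in Liver, 16.5 in Sk_muscle and 211.2 in SK7_ESC. Its ratio to SK7_ESC was 3.25 in End, 2.16 in Pme and 2.58 in Ect. In each adult tissue it was at least 4.22-fold lower than in SK7_ESC. No adult signal reached background and all 4 cultured signals were above it. A looser pattern formed after the values were seen, each adult array at least 2-fold lower than all 4 cultured arrays whether or not it was above background, held for 4.19% of all genes. With the arrays scaled to the same median, the log2 ratio in Pme was 0.87, under the call. Tead2 has 1 probe set.

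Tead1, whose protein binds the promoters of muscle genes, had 325.7 in End, 817.7 in Pme, 449.1 in Ect, 63.7 in Brain, 92.4 in Liver, 616.6 in Sk_muscle and 496.5 in SK7_ESC. It was 7.79-fold lower in Brain and 5.37-fold lower in Liver than in SK7_ESC, and its ratio in Sk_muscle was 1.24. Brain and Liver lay within 2-fold of each other and 3.52-fold or more below the next array, End. This rests on the brighter of 2 probe sets, since the other was at most 30.7 in any array. Tead3, with 1 probe set, had 40.5 in End, 48.8 in Pme, 52.3 in Ect, 22.5 in Brain, 78.7 in Liver, 68.3 in Sk_muscle and 31.5 in SK7_ESC. These signals lie around background and Tead3 was called in none of the 8 comparisons made. Tead4, required for the trophectoderm of the mouse blastocyst, had its highest signal at 20.8 in Sk_muscle and was at 20.2 in End, 17.1 in Pme, 2.3 in Ect and 15.8 in SK7_ESC. Both of its probe sets were under background in all 7 arrays, so its levels have no order.

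Lats2, the kinase gene of the list and a target of YAP and TAZ in human cells, had 72.4 in End, 258.5 in Pme, 164.1 in Ect, 110.6 in Brain, 77.4 in Liver, 111 in Sk_muscle and 12.4 in SK7_ESC with its main probe set. SK7_ESC was the 1 array under background, and the signal was at least 5.17-fold higher in Pme and at least 3.28-fold higher in Ect. In End it was 2.27-fold lower than in Ect. Only 1 of its 6 probe sets carries these calls, and its identifier is of the kind given to shared sequence. The other 5 were between 0.7 and 22 in SK7_ESC, reached at most 58.8 in Pme and 53.1 in Ect, and were called in no comparison. Without probe sets of that kind the log2 ratio of Lats2 was 0.13 in Pme and 0.09 in Ect. The brightest of the remaining probe sets was also higher in Pme, Ect and Liver than in SK7_ESC before the background was applied, at 54.9, 53.1 and 61.7 against 22.

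Counted over the list, End had 4 of 10 genes higher than SK7_ESC, Pme had 5 and Ect had 5, and 0 were lower in any of the 3. With the geometric mean of probe sets 2 were higher in Ect. Without shared-sequence probe sets, which leaves 8 of the 10 genes, 3 were higher in Pme and 3 in Ect. At 3-fold 2 were higher in End and 3 in Ect. In each of these cases the share of all genes that was higher was smaller too. The shares given next belong to the 2-fold rule with main probe sets and not to these alternatives. Over all genes, 4.89% were higher in End, 6.74% in Pme and 6.62% in Ect. Lower were 3.81% in End, 4.55% in Pme and 4.89% in Ect. These shares count genes under background in both arrays, which could not be called. Of the 18194 genes, 9002 were above background in End or SK7_ESC, 9312 in Pme or SK7_ESC and 9321 in Ect or SK7_ESC. Of the 10 list genes 8, 8 and 9 were, so a share of all genes is a low measure for the list. The same holds for the shares given beside other counts. The list was chosen on Amot in 2 of these comparisons, and they share the SK7_ESC array. The genes higher in all 3 layers were Amot, Amotl1, Amotl2 and Tead2, and 1.76% of all genes were of this kind. Of these, Amot in Ect and Amotl1 in End and Ect were not called with the geometric mean, and Tead2 in Pme was not called with median scaling. Amotl2 has an _a_at probe set alone and so was dropped where shared-sequence probe sets were left out. Among genes with at least 1 signal of the pair above background, the median log2 ratio of the list was 0.84 in End, 1.48 in Pme and 1.31 in Ect, against 0.00, 0.03 and 0.05 over all such genes. Against Ect, 1 gene was higher in End (Amot, 3.67% of all genes) and 1 lower (Lats2, 3.9%), and in Pme 1 was higher (Amot, 3.67%) and 0 were lower (2.65%).

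**Figure D2:**
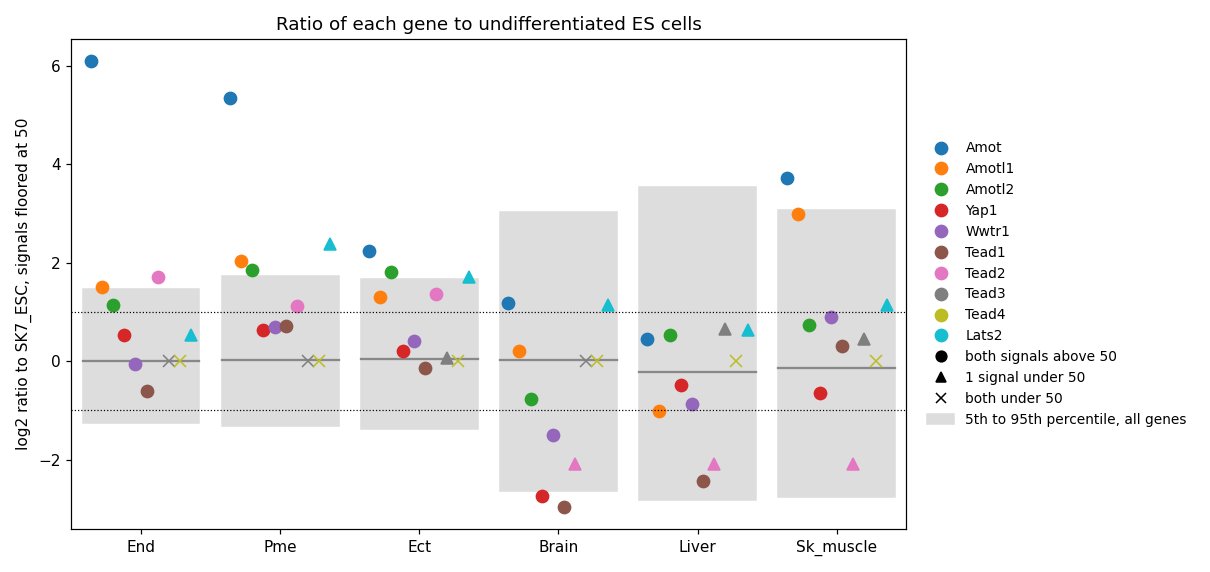
Log2 ratio of each of the 10 genes to SK7_ESC in 6 arrays, 1 array each, with signals floored at 50; circles have both signals above 50, triangles 1 signal under it and crosses both, grey boxes span the 5th to 95th percentile and grey lines mark the median of genes above background in either array. Amot lies at 6.09 in End and 5.35 in Pme, above the boxes, and dotted lines mark 2-fold.

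In the adult tissues members of the list were called in both directions, and the shares of all genes are given in brackets. Most of the counts were not far from these shares for a list of 10 genes. The 4 lower genes in Brain stood furthest from theirs, and whether any count departs from its share was not tested. In Brain 2 of 10 genes were higher than in SK7_ESC (14.9% of all genes) and 4 were lower (15%), which were Yap1, Wwtr1, Tead1 and Tead2. The higher ones, Amot at 2.27-fold and Lats2 at least 2.21-fold, were not called with quantile or median scaling. In Liver 0 were higher (12.2%) and 3 were lower (16%), namely Amotl1, Tead1 and Tead2. In Sk_muscle 3 were higher (12.7%), Amot, Amotl1 and Lats2, and Tead2 was lower (15.2%). Among genes with at least 1 signal of the pair above background, the median log2 ratio of the list was -1.12 in Brain, -0.48 in Liver and 0.73 in Sk_muscle. Over all such genes it was 0.02, -0.23 and -0.14. Set against Brain and Liver, Sk_muscle had at least 2-fold higher signals of Amot, Amotl1, Wwtr1 and Tead1 with their main probe sets, a pattern formed after the values were seen that held for 7.47% of all genes. The third probe set of Amot did not share it, at 46.5 in Sk_muscle, 22.1 in Brain and 63.7 in Liver. Endothelium and connective tissue also express Amot, Amotl1, Wwtr1 and Tead1, and in Sk_muscle 7 of 7 endothelial and 9 of 10 fibroblast markers were above background. In Brain and Liver 2 and 5 of the endothelial markers were. The summed signal of the endothelial markers was 1589 in Sk_muscle, 273 in Brain and 609.3 in Liver, and that of the fibroblast markers was 14304, 2297 and 2823. Their part in the muscle signals was not tested.

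Upstream of the list, a few of the core kinases and their partners were higher in the germ layers. Of 12 measured genes of this group, End had 2 higher than SK7_ESC, Pme had 3 and Ect had 2, and 0 were lower, although with quantile or median scaling 1 was lower in Ect. The share of all genes that was higher was 4.89% in End, 6.74% in Pme and 6.62% in Ect. With the geometric mean of probe sets 1 gene of the group was higher in each layer. Lats1, the partner kinase of Lats2, had 343.8 in End, 304.4 in Pme, 361.2 in Ect and 108 in SK7_ESC, and was 3.18-fold, 2.82-fold and 3.34-fold higher. Mob1b, whose protein activates LATS kinases, had 179.6 in End, 125.5 in Pme, 144.7 in Ect and 43.2 in SK7_ESC, at least 3.59-fold, 2.51-fold and 2.89-fold higher. Taok1, a kinase gene upstream of MST kinases, was 2.36-fold higher in Pme. Sav1, the scaffold of MST kinases, had 225.2 in End, 317 in Pme and 179.5 in SK7_ESC, and was not called. Stk4, which encodes MST1, had 586.1, 466.5 and 740.4 in the same arrays, and Stk38, a LATS-related kinase gene, 707.2, 533.7 and 760.7, neither of them called. Among genes with at least 1 signal of the pair above background, the median log2 ratio of the group was 0.16 in End, 0.35 in Pme and 0.19 in Ect. Over all such genes it was 0.00, 0.03 and 0.05.

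Of 29 measured genes for junction, polarity and cadherin regulators of the pathway, 6 were higher and 0 lower in End than in SK7_ESC, 5 higher and 2 lower in Pme, and 4 higher and 1 lower in Ect. The shares of all genes were 4.89% higher and 3.81% lower in End, 6.74% and 4.55% in Pme, and 6.62% and 4.89% in Ect. With the geometric mean of probe sets 3 were higher in End (3.2% of all genes), and with a background of 20 there were 8 higher in Pme (10.2%). Among genes with at least 1 signal of the pair above background, the median log2 ratio of the group was 0.37 in End, 0.39 in Pme and 0.24 in Ect. Over all such genes it was 0.00, 0.03 and 0.05. Mpp5, which encodes PALS1, a partner of Crumbs proteins at apical junctions, had 700 in End, 332.1 in Pme, 224.7 in Ect and 134.1 in SK7_ESC, which gave ratios of 5.22 for End and 2.48 for Pme. Patj, whose protein binds PALS1 and angiomotins, had 166 in End, 91.1 in Pme, 10.4 in Ect and 24.1 in SK7_ESC, and was called in End alone of these layers, at least 3.32-fold higher. Crb3, a Crumbs gene of epithelia, had 247 in End, 27.6 in Pme, 31.7 in Ect and 72.7 in SK7_ESC, 3.40-fold higher in End. Crb1, another Crumbs gene, was under background in all 7 arrays, at 14.9 in End and 27.4 in SK7_ESC. Mpdz, which encodes MUPP1, was higher in all 3 layers, 2.96-fold in End, 3.37-fold in Pme and 3.74-fold in Ect. Frmd6, a FERM domain gene of the pathway, was 380.9 in Pme, 56 in End and 63.9 in SK7_ESC, 5.96-fold higher in Pme. Lower in Pme were Nedd4l, a ubiquitin ligase gene, by 2.17-fold and Llgl2, a basolateral polarity gene, by 2.16-fold. Llgl2 was also lower in Ect, at 34.6 against 228 in SK7_ESC.

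Genes that YAP and TAZ activate in human cells were counted next, and differences between the layers in these counts were not tested. Of 19 measured targets, End had 2 higher and 1 lower than SK7_ESC, Pme had 8 higher and 1 lower, and Ect had 6 higher and 1 lower. Of all genes, 4.89% were higher in End, 6.74% in Pme and 6.62% in Ect, while 3.81%, 4.55% and 4.89% were lower. With the geometric mean of probe sets the higher targets were 5 in Pme and 3 in Ect, and with a background of 100 or without shared-sequence probe sets 1 was higher in End. Among genes with at least 1 signal of the pair above background, the median log2 ratio of the group was 0.11 in End, 0.96 in Pme and 0.75 in Ect. Over all such genes it was 0.00, 0.03 and 0.05. Set against Ect, 0 targets were higher and 5 lower in End, where 3.67% of all genes were higher and 3.9% lower. Ccn1 had 797.7 in End, 839.4 in Pme, 563.3 in Ect, 38.3 in Brain, 18.6 in Liver, 248.3 in Sk_muscle and 62.4 in SK7_ESC, and was 12.8-fold, 13.5-fold and 9.03-fold higher in the 3 layers. These values rest on its main probe set, whose identifier is of the kind given to shared sequence. Ccn2, which encodes the related protein CTGF, did not share this pattern, with 81.5 in End, 173.9 in Pme, 532.9 in Ect and 121.9 in SK7_ESC, and was called in Ect alone of the layers, 4.37-fold higher. Ankrd1, a cardiac ankyrin repeat gene, was 13.6 in End, 74.7 in Pme, 37.9 in Ect and 7.4 in SK7_ESC, not called, and reached 328.2 in Sk_muscle.

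Tgfb2, which encodes a TGF-beta ligand, was at least 3.37-fold higher in End, 14.5-fold in Pme and 2.16-fold in Ect, where SK7_ESC was under background at 8.3. Ccdc80, a gene of the extracellular matrix, was at least 17.9-fold higher in Pme, and Rbms3, an RNA-binding protein gene, at least 9.80-fold. Gadd45a, a gene of the DNA damage response, was lower in all 3 layers, 7.13-fold in End, 3.65-fold in Pme and 3.21-fold in Ect. F3, the tissue factor gene, had 58.2 in End, 73.1 in Pme and 112.6 in SK7_ESC and was not called. Fibroblast markers moved with the targets in Pme, with 8 of 10 above background there, 4 in End, 7 in Ect and 4 in SK7_ESC, and summed signals of 9105, 574.4, 2266 and 800.7. Under background in Pme were Lum at 36.8 and Thy1 at 24.5. The part of such cells in the target signals was not tested.

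**Figure D3:**
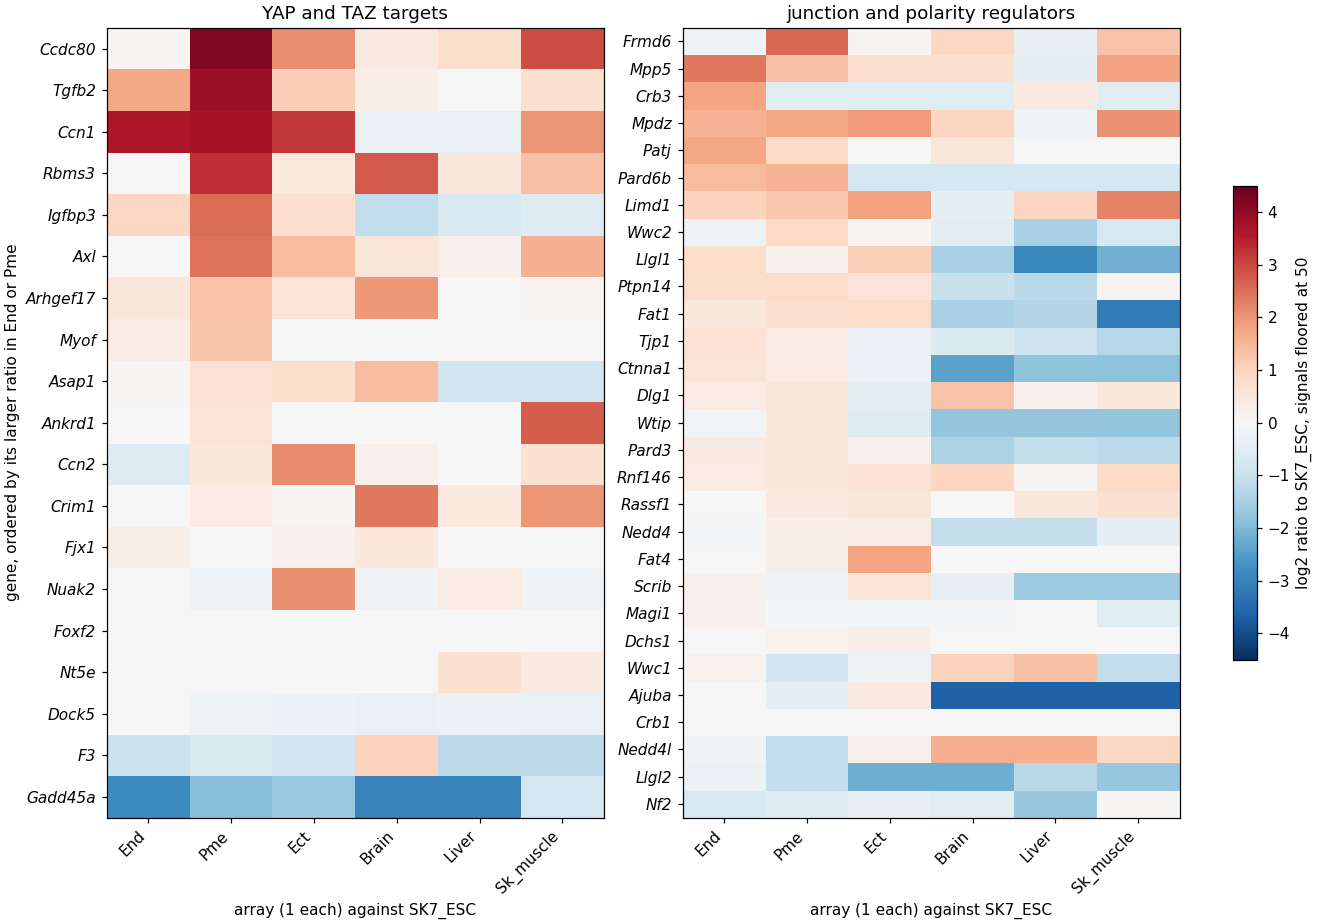
Log2 ratio to SK7_ESC, signals floored at 50, of the 19 targets of YAP and TAZ (left) and the 29 junction, polarity and cadherin regulators (right) in 6 arrays, 1 each; red is higher and blue lower than SK7_ESC, and genes are ordered by their larger ratio in End or Pme. Ccn1 is red in the 3 germ layers, where its ratios are 12.8, 13.5 and 9.03, and Mpp5 is at 5.22 in End. The probe set of Ccn1 is of the shared-sequence kind.

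Of the TEAD cofactors, 0 of 5 measured genes were called in any germ layer, although with quantile or median scaling 1 was lower in Pme and 1 in Ect. Against SK7_ESC, 3 of the 5 lay under background in both arrays for End, likewise 3 for Ect, and 2 for Pme. Such genes could not be called. Of all genes, between 4.89% and 6.74% were higher in a layer and between 3.81% and 4.89% lower. With so few cofactors above background, a count of 0 does not set them apart from other genes. Vgll2, a vestigial-like cofactor gene of skeletal muscle, was 468 in Sk_muscle and at most 17.3 in the other arrays. Wbp2, whose protein binds the WW domains of YAP, was 448.8 in Brain and 197.9 in SK7_ESC, 2.27-fold higher in Brain. Vgll3 was 79.8 in Pme, 55 in Ect and 28.6 in SK7_ESC, and Vgll4 was 57.5 in End and 25.4 in SK7_ESC, none of these called. Vgll1 was under background in all 7 arrays.

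Trophectoderm genes were looked at because TEAD4 with YAP acts there in the mouse blastocyst. Of 9 measured genes, 4 were higher and 1 lower in End than in SK7_ESC, 4 higher and 1 lower in Pme, and 0 higher and 1 lower in Ect. Over all genes 4.89%, 6.74% and 6.62% were higher in these layers and 3.81%, 4.55% and 4.89% lower. Without shared-sequence probe sets 2 were higher in End, where 4.6% of all genes were. The main probe sets of Krt7 and Krt8 are of the _a_at kind. Krt18, a keratin gene that other simple epithelia also express, had ratios to SK7_ESC of 44.7 in End and 26.0 in Pme, and those of its partner Krt8 were 35.8 and 24.2. Cdx2, a trophectoderm factor that is also expressed in posterior mesoderm, was 414.7 in Pme, 52.1 in Ect, 10.9 in End and 1.6 in SK7_ESC. Hand1, also a gene of lateral mesoderm, was 469.5 in Pme and 19.6 in SK7_ESC, at least 9.39-fold higher. Eomes, a T-box gene also of the primitive streak and endoderm, was 1246 in End and 44.6 in SK7_ESC, at least 24.9-fold higher. Tfap2c was lower in all 3 layers, 5.02-fold in End and at least 6.97-fold in both Pme and Ect, with 348.4 in SK7_ESC. Elf5, a defining gene of the trophoblast, was under background in all 7 arrays.

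The genes whose profile was most like that of Amot were sought by Pearson's r of log2 signal, floored at 50, over the 7 arrays. Compared were 6114 genes above background in at least 1 array, with a highest signal at least 4 times the lowest. Predicted genes, with symbols of Gm and a number or ending in Rik, were left out. These are descriptions over 7 points that share the arrays and their scaling. The 5 most alike were Id1 (r = 0.949), an inhibitor of basic helix-loop-helix factors, Aplnr (0.943), the apelin receptor gene, Pwwp3b (0.938), Podxl (0.937), which encodes the sialomucin podocalyxin, and Adamts9 (0.92), a secreted metalloprotease gene. Podxl had 2439 in End, 1327 in Pme, 244.9 in Ect, 177.5 in Sk_muscle and 83.3 in SK7_ESC. Aplnr had 901.4 in End, 625.4 in Pme, 133.9 in Ect, 98.3 in Sk_muscle and 0.2 in SK7_ESC. By the root mean square difference of centred log2 signals, 4 of the 5 genes stayed among the closest 5, and Ccn1 was the fifth. With a floor of 20, 3 stayed.

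Within the list, r was computed for 36 pairs of the 9 genes that were above background in any array. It was highest for Wwtr1 with Tead1 (0.963), both high in Pme and Sk_muscle and low in Brain and Liver. It was 0.824 for Amotl2 with Yap1 and 0.757 for Amot with Amotl1. The lowest was that of Tead2 with Tead3 (-0.656), and all 8 pairs below 0 held Tead3, whose signals lay around background.

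**Figure D4:**
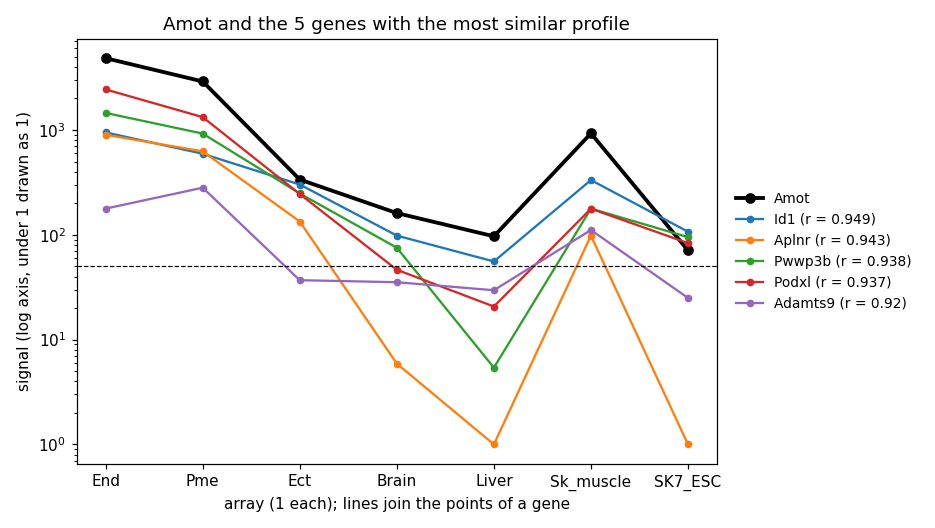
Signals (log axis, signals under 1 drawn as 1) of Amot in black and of the 5 genes with the highest Pearson's r to it over the 7 arrays, 1 array each, with lines joining the points of a gene and a dashed line at the background of 50. Predicted genes were left out of the search. Podxl is at 2439 in End and 83.3 in SK7_ESC; the shapes and not the heights can be compared between genes.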

How the data were processed

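The authors hybridized RNA of 7 samples to Affymetrix mouse expression arrays and deposited 1 linear intensity for each array and each of 45101 probe sets, with every array scaled globally to an average of 100. The algorithm that summarised the probes, not given in the sources used here, could change the levels. The 2% trimmed mean of every array was 100.0. The methods name TRIzol and the labels another RNA kit. Of the probe sets, 34958 have 1 gene symbol in the platform annotation, 932 several, and 9211 are unnamed here; 34754 were matched by Entrez identifier to RefSeq (GRCm38.p6), with 0 symbols changed. A gene was represented by its brightest probe set, by mean log2 signal over the arrays.

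The genes, lists and comparisons were chosen with earlier results of these data known. Named genes were all members, up to 4 genes of each list with the largest and 2 with the smallest ratios in End or Pme, and Ccn1, Ccn2 and Ankrd1. Patj, Crb1 and Elf5, outside this rule, were named after their values were seen, as were marker genes given with values. The code for the calls was run on simulated data with set fold changes, which checks the code and not how reliable calls from 1 array are. Alternatives were backgrounds of 20 and 100, quantile normalization, median scaling, the geometric mean of probe sets, leaving out probe sets that mark shared sequence, and a 3-fold rule. The probe sets left out include identifiers ending in _a_at, as for Amotl2 and Tead3, and in _x_at, as for Lats2 and Ccn1. These kinds were not told apart, and an _a_at identifier is not by itself a sign of sequence shared with another gene. The pathway lists were added to the alternatives after the data were seen. Python 3.11.15 with numpy 2.4.6, pandas 2.3.3, scipy 1.17.1 and matplotlib 3.10.9 was used.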

Additional observations from a re-analysis of the deposited data

Results flagged for a closer look

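Amotl1 was higher than in SK7_ESC in some arrays and lower in another. It was 2.85-fold higher in End, 4.08-fold in Pme, 2.48-fold in Ect and 7.94-fold in Sk_muscle, and 2.03-fold lower in Liver. Tead2 was 3.25-fold higher in End, 2.16-fold in Pme and 2.58-fold in Ect, and at least 4.22-fold lower in Brain, Liver and Sk_muscle alike. With 1 array each, these differences between sources were not tested.

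A probe set annotated to both Xpo4, a nuclear export receptor gene, and Lats2 was left out of the comparisons because it names more than 1 gene. It had 204.1 in End, 151.8 in Pme, 145.1 in Ect, 60.7 in Brain, 74.5 in Liver, 71.8 in Sk_muscle and 352.8 in SK7_ESC. Its highest signal was thus in ES cells, where the main probe set of Lats2 was at 12.4, its lowest. Which of the 2 genes it reports was not tested.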

How the results depend on the processing

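Of the 16 counts of members called (8 comparisons, 2 directions), the higher genes in Pme against Ect, in End against Ect and in Sk_muscle, the lower genes in Brain, Liver and Sk_muscle, and the counts of 0 lower genes in the germ layers stayed within 1.5 times under every alternative run. The 3-fold rule gave 2 higher genes in End instead of 4, 3 in Ect instead of 5, 0 lower in End against Ect and 0 higher in Brain. A background of 100 gave 0 lower in End against Ect and 0 higher in Brain, and one of 20 gave 2 higher in Liver instead of 0. The geometric mean of probe sets gave 2 higher genes in Ect, 0 lower in End against Ect and 0 higher in Brain. Quantile normalization and median scaling each gave 0 higher in Brain. Without probe sets that mark shared sequence, which leaves 8 of the 10 genes, 3 were higher in Pme, 3 in Ect and 1 in Brain, and 0 were lower in End against Ect. Over 464 recomputed ratios of members, 65 moved by 1.5 times or changed call and 0 called ratios reversed. The log2 ratio of Amot, End against SK7_ESC, was 5.23 with the geometric mean and 6.09 with the main probe set. For the pathway lists, the geometric mean gave 3 higher junction genes in End instead of 6 and 1 higher core kinase gene in each layer, and a background of 20 gave 8 higher junction genes in Pme instead of 5. Before signals were raised to background, median scaling moved the median log2 difference of all genes against SK7_ESC to -0.0544 in End, -0.188 in Pme and -0.139 in Ect. In the adult tissues it was -0.528 in Brain, -0.245 in Liver and -0.138 in Sk_muscle. With signals raised to background, as in the ratios used here, the median was 0.0 in each of these. That value says little, since many genes were under background in both arrays and had a ratio of exactly 1. For End against SK7_ESC, 9002 of 18194 genes had a signal above background. Ratios of single genes did move, as for Tead2 in Pme, from a log2 ratio of 1.11 to 0.87 with median scaling. The cause of these changes was not tested. No paired analysis was possible because each group has 1 array. Tead3, Tead4 and 5 of 6 Lats2 probe sets lie near or under background, where larger changes can be missed.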
